A study of Mus musculus with 25 samples.

Results

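The 105 solute carrier genes described here are all rows of the deposited tables whose symbol has the form Slc, a family number, a letter and a member number, and whose deposited FPKM (fragments scaled by library size and transcript length) was at least 5 in at least 3 of 25 libraries. They are 105 of 358 symbols of that form and of 24412 symbols in all. They were chosen by the same expression values that are described here, so their being expressed is a condition of membership and no finding. By their third-highest FPKM, the members just inside the threshold were Slc2a3 (5.01), Slc18a2 (5.31) and Slc35e4 (5.36), and the carriers just outside it were Slc12a5 (4.87), Slc35e2 (4.70) and Slc31a1 (4.44). Of the 105 members, 26 reached an FPKM of 5 in every library, 3 in MII libraries alone (Slc30a4, Slc35b3 and Slc41a2) and 11 in L2C libraries alone (Slc1a1, Slc1a5, Slc2a3, Slc4a11, Slc5a6, Slc25a11, Slc25a36, Slc25a51, Slc29a2, Slc39a1 and Slc39a4). A further division is by genotype: 5 members reached it in WT libraries alone (Slc25a20, Slc29a2, Slc38a8, Slc39a7 and Slc41a2) and 0 in KO libraries alone. Members that entered through 1 stage or 1 genotype had to be higher there, and their counts carry no weight for a stage or genotype difference.

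RNA was sequenced from mouse MII oocytes, which wait in the second meiotic metaphase, from PN3 zygotes, in which the pronuclei have formed, and from embryos early (E2C) and late (L2C) in the 2-cell stage, each labelled Smarca4 knockout (KO) or wild type (WT). There were 2 KO and 3 WT libraries at MII, 4 KO and 4 WT at PN3, 3 KO and 3 WT at E2C, and 3 KO and 3 WT at L2C. Smarca4 encodes the BRG1 ATPase of the BAF chromatin remodelling complexes. Per the labels' protocols, eggs were collected for sperm injection from females of 8 to 12 weeks, primed with 7 IU of PMSG and, 48 h later, 5 IU of hCG. Those females were B6D2F1 hybrids or C57BL/6 mice with Smarca4flox/flox and Gdf9 Cre, a driver that acts in the oocyte, so the loss is of the maternal gene. The strain behind each library and the sperm genotype are not given in the sources used here. Strain and genotype cannot be told apart. No label says that replicates came from separate females, so the spread behind each p-value is that between these libraries and may be technical.

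Solute carriers are membrane proteins that move sugars, amino acids, ions, vitamins and nucleotides across the plasma membrane and the membranes of organelles, by facilitated diffusion, by exchange or by coupling to an ion gradient. Mouse eggs and cleaving embryos live mainly on pyruvate and lactate, take up glucose in quantity only later, and use glycine and other organic solutes to hold their volume. The Slc25 family carries nucleotides, phosphate, cofactors and metabolites through the inner mitochondrial membrane, apart from a few members of other organelles such as the peroxisomal Slc25a17. Until the embryo's genome is switched on, its RNA is what the oocyte left, and in the mouse the main wave of new transcription falls in the late 2-cell stage.

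Values are scaled FPKM unless another unit is named, with depth unknown, and each is a level within its library. In pooled eggs and embryos, fewer cells with an RNA and less RNA per cell cannot be told apart. Smarca4 itself averaged 0.220, 0.315, 2.57 and 22.0 in KO libraries at MII, PN3, E2C and L2C, against 28.0, 31.1, 28.4 and 71.0 in WT libraries. The KO mean was below the WT mean at each stage, in the direction of the labels. By L2C, however, Smarca4 RNA was present in KO embryos, so that comparison is not one of embryos without it. The summed level of 8 oocyte markers (Zp1, Zp2, Zp3, Gdf9, Bmp15, Oosp1, Nlrp5 and Npm2) lay between 384 and 3166 in every library, while 14 cumulus and granulosa markers summed to at most 6.96, mostly Cyp19a1, and 10 blood markers to at most 2.61, with Hba-a1, Hbb-bs and Hbb-bt listed at 0. The 10 sperm and testis markers summed to at most 9.96 except in KO E2C replicate 2, which reached 21.7. A pair of libraries stood apart from their groups. WT E2C replicate 2 listed 9345 genes above 0, against 13585 to 16698 elsewhere. WT L2C replicate 3 had an oocyte marker sum of 913, against 384 and 480 in the other WT L2C libraries and 762, 1012 and 1036 in the KO L2C libraries, and a sum of 10 2-cell markers of 380, against 130 and 128 in WT and 280, 321 and 325 in KO.

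The 105 members fell into 2 glucose carriers, 13 amino acid carriers, 26 Slc25 carriers, 12 of the nucleotide sugar family Slc35, 13 for zinc and other metals, 18 for inorganic ions, 4 for vitamins, 3 of the monocarboxylate family Slc16, 2 for nucleosides and nucleobases, 5 for lipids, choline and bile-acid-like anions, and 7 others. Other carriers of similar substrates lay below the threshold, by their third-highest FPKM: the glucose carrier Slc2a8 at 2.51, the creatine carrier Slc6a8 at 1.72, the amino acid carriers Slc7a6 at 0.847 and Slc38a2 at 0.449, and the monocarboxylate carriers Slc16a3 at 0.641 and Slc16a7 at 0.426. The sodium-coupled glucose carrier Slc5a1 had a third-highest value listed at 0.

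**Figure D1:**
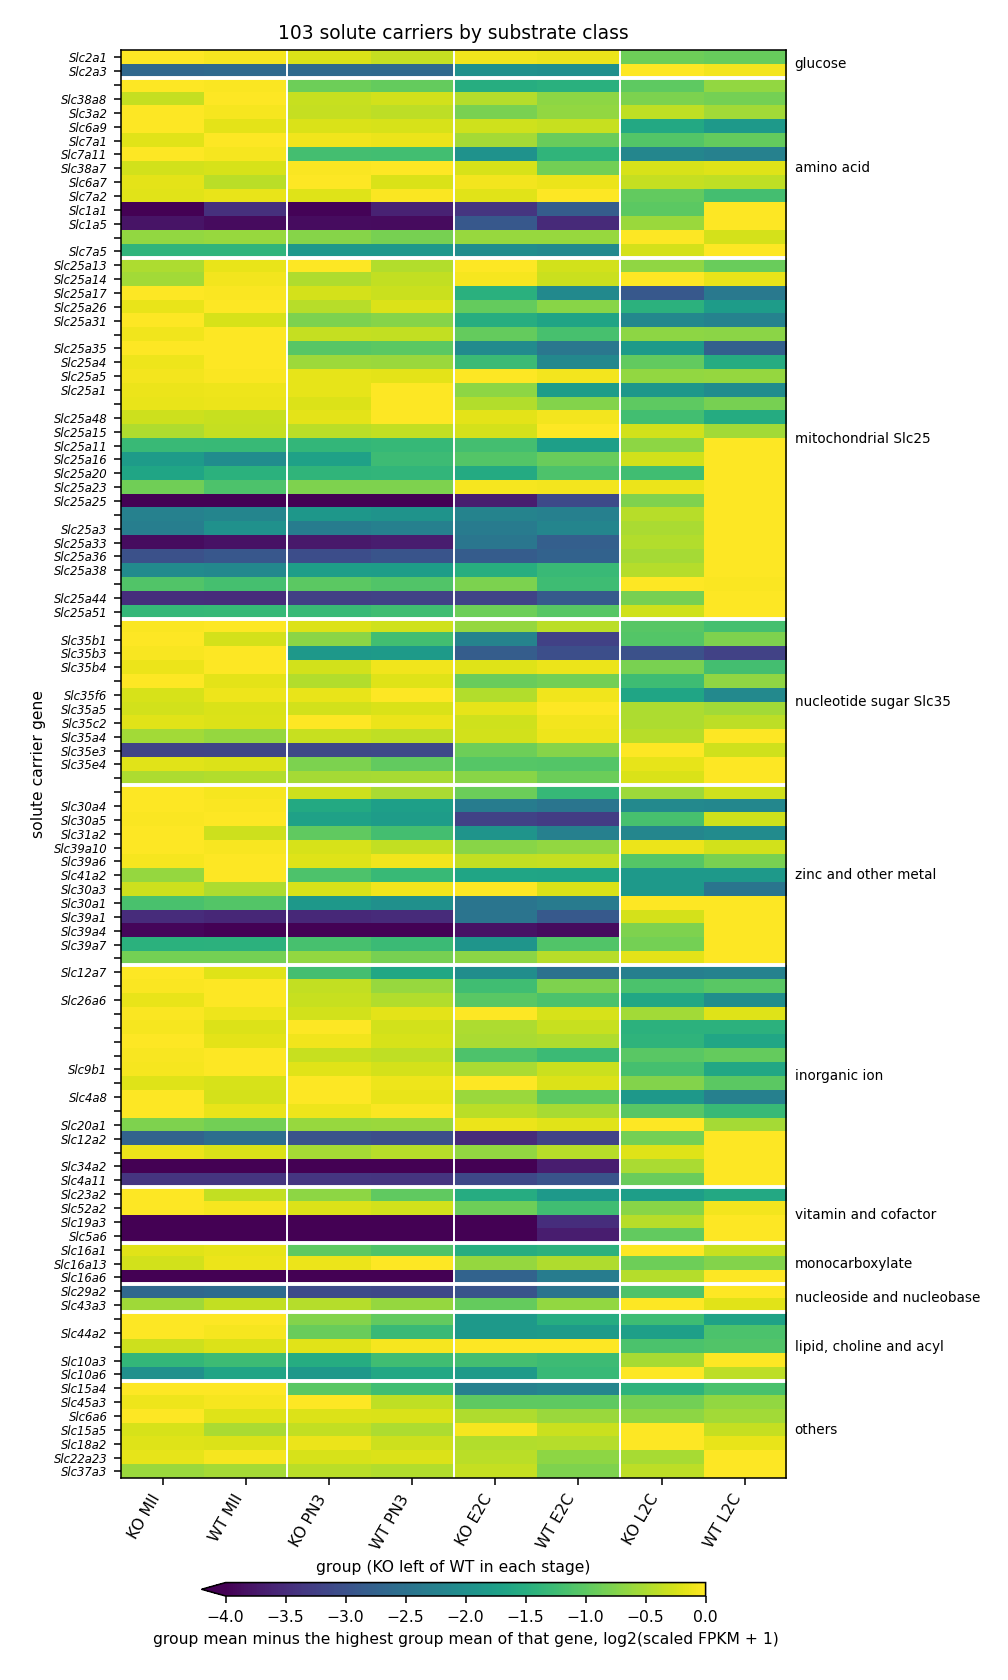
The level of 103 of the 105 members (rows, by substrate class, with names for those described in the text) in the 8 groups of libraries (columns, KO left of WT in each stage), as the group mean on the log2(scaled FPKM + 1) scale minus the highest group mean of that gene. Yellow marks a gene's highest group mean and dark blue a group 4 log2 units or more below it. Of the 105 members, 44 in KO and 46 in WT were highest at MII and 40 in KO and 41 in WT at L2C. Over all genes tested, 26.1% in KO and 24.9% in WT were highest at MII and 44.7% and 44.9% at L2C. Of the 91 members that reached the threshold in more than 1 stage, 41 in KO and 43 in WT were highest at MII. At L2C they were 29 and 30.

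A single member had the highest mean in most groups of libraries. It was Slc45a3 (prostein), a relative of sugar carriers first described in prostate. By group mean it was the highest member in KO at each of the 4 stages and in WT at MII, PN3 and E2C. Its values at MII were 218 and 202 in KO libraries, against 214, 216 and 222 in WT libraries. At PN3 they were 186, 184, 256 and 276 in KO libraries, against 170.0, 146, 179 and 193 in WT libraries, at E2C 92.9, 126 and 121 in KO libraries, against 107, 137 and 95.1 in WT libraries, and at L2C 147, 111 and 117 in KO libraries, against 113, 180.0 and 137 in WT libraries. The groups overlapped at every stage, and PN3 varied most, with KO replicates 3 and 4 above every WT library. WT replicates 3 and 4 were likewise the higher of their group. Each KO PN3 library was above the WT library of the same number, though numbers are not known to pair libraries. Behind it at MII came Slc30a3, a zinc exporter known from synaptic vesicles, Slc25a48, a mitochondrial carrier recently tied to choline, the zinc importers Slc39a6 and Slc39a10, and the glycine carrier Slc6a9, each with a mean of 60.8 to 78.1 in both genotypes. At L2C the order changed in both genotypes. In WT Slc34a2, a sodium-phosphate carrier, came first at 175 ± 25.2 (SD, n = 3). Behind it came Slc45a3, the mitochondrial branched-chain amino acid carrier Slc25a44 and the thiamine carrier Slc19a3. In KO Slc34a2, at 123 ± 22.5, was close to Slc45a3, at 125 ± 19.3 (SD, n = 3 each). Slc34a2 was above Slc45a3 within each WT L2C library, although their ranges across those libraries overlapped.

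Summed over all 105 members, the level averaged 1539 in KO and 1516 in WT libraries at MII, 1349 in KO and 1296 in WT at PN3, 1131 in KO and 1133 in WT at E2C, and 1453 in KO and 1733 in WT at L2C. Lowest at E2C in both genotypes, the sum at L2C was 1534, 1397 and 1428 in the KO libraries, against 1731, 1853 and 1614 in the WT libraries. Those groups did not overlap, and WT replicate 3 lay nearest to KO. The sums include 5 members that entered through WT libraries alone and 0 through KO libraries alone. Part of that gap may therefore be a condition of membership, and 0 members were called between KO and WT at L2C. The Slc25 carriers gave 382 ± 24.0 in KO and 477 ± 67.4 in WT at L2C (SD, n = 3 each). The amino acid carriers gave 215 in KO and 207 in WT libraries at MII, and 146 in KO and 157 in WT at L2C. The glucose pair stayed between 10.6 and 13.8 in all 8 group means.

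**Figure D2:**
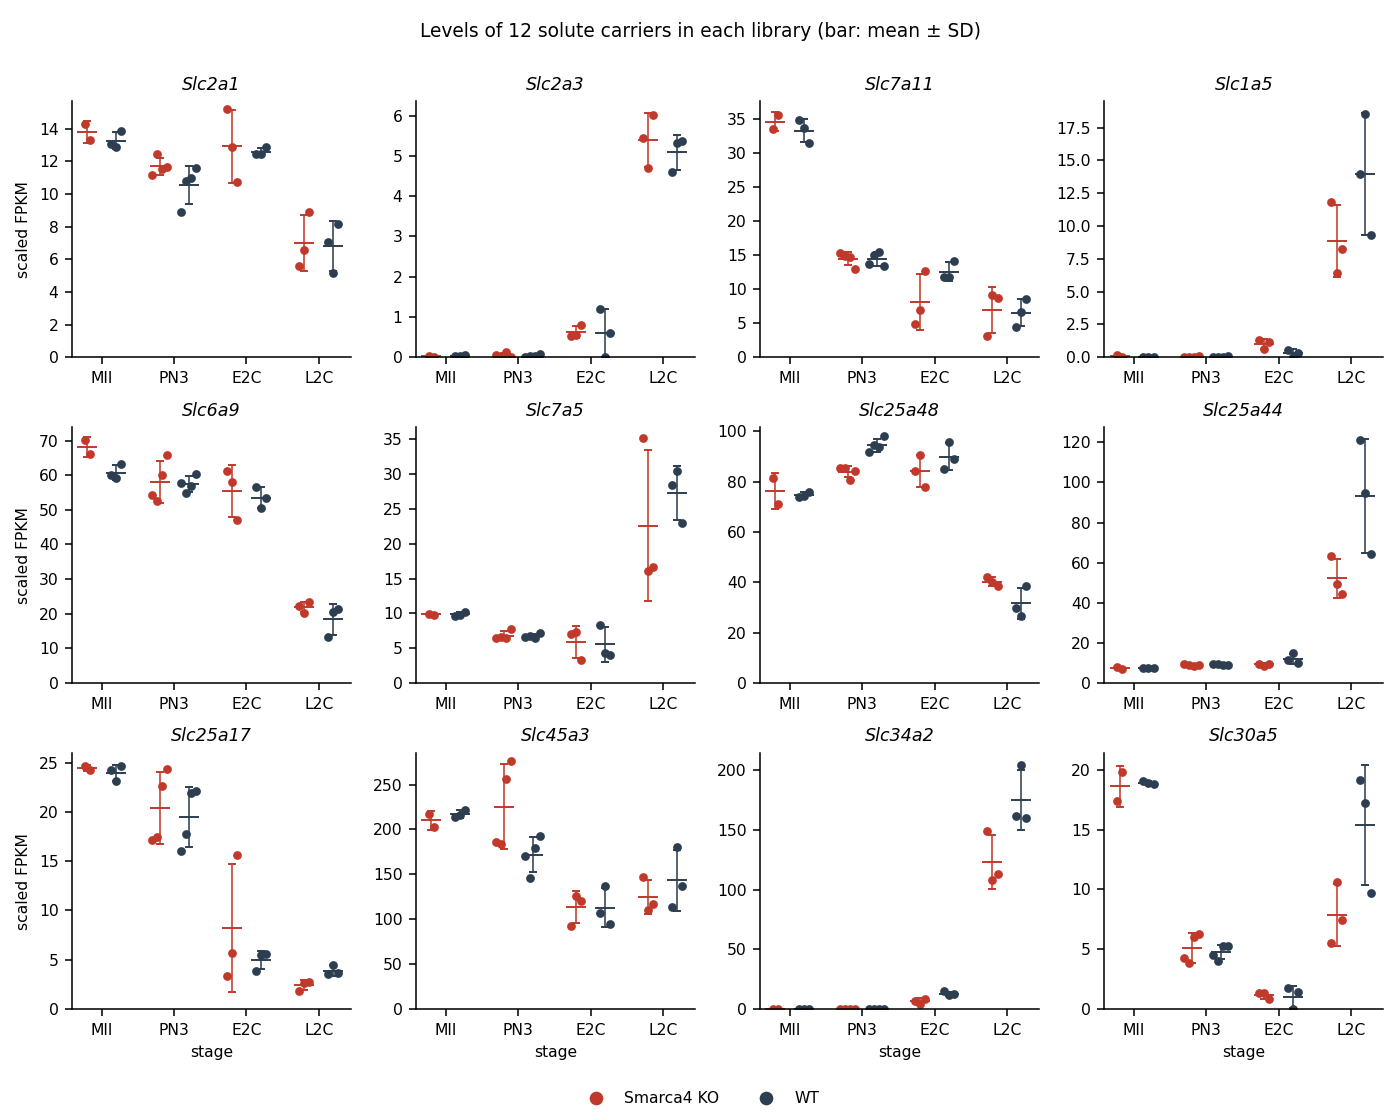
Scaled FPKM (vertical axis, from 0) of 12 members in each of 25 libraries by stage (horizontal axis), KO points left of WT points, with bars for the group mean ± SD. Slc7a11, Slc6a9, Slc25a17 and Slc30a5 stand high at MII, Slc34a2 and Slc1a5 lie near 0 until the 2-cell stages, and Slc25a44 and Slc7a5 are highest at L2C.

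WT libraries were compared between successive stages by limma, with Benjamini-Hochberg adjustment over 12079 genes and a call at an adjusted p under 0.05. At PN3 against MII, 53 members were called, 11 higher (10.5%) and 42 lower (40.0%), beside 45.2% of all genes tested, 19.2% higher and 26.1% lower. At E2C against PN3, 35 were called, 12 higher (11.4%) and 23 lower (21.9%), beside 31.0% of all genes tested, 12.9% higher and 18.1% lower. At L2C against E2C, 59 were called, 40 higher (38.1%) and 19 lower (18.1%), beside 52.4% of all genes tested, 34.1% higher and 18.3% lower. At L2C against MII, 80 were called, 34 higher (32.4%) and 46 lower (43.8%), beside 73.7% of all genes tested, 40.4% higher and 33.3% lower. The median over members was -0.25 (log2), beside 0.13 over all genes tested. The 91 members that reached the threshold in more than 1 stage gave 23 higher and 43 lower in that last comparison, and the 14 that entered through 1 stage gave 11 and 3. At L2C against E2C those 91 gave 29 higher and 19 lower, and the 14 gave 11 and 0, so the shares at that step were near those of all genes tested. With FPKM as deposited, E2C against PN3 gave 8 higher and 38 lower, where the median of all genes was -0.20 (log2), against -0.05 with scaling. That median at L2C against MII was -0.05 as deposited, against 0.13 with scaling.

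Of the possible courses over the 3 steps, the most frequent was a fall at PN3 with no later call, in 16 members. Another 10 fell at PN3 and again at E2C, and 13 were called only at the last step, as higher. A rise at E2C and a further rise at L2C marked 8 members, a fall at PN3 followed by a rise at L2C marked 7, and 6 fell at PN3 and E2C and rose at L2C. There were 11 members with no call at any step. Over all genes tested, these 7 courses took 7.84%, 4.16%, 15.2%, 2.90%, 5.89%, 3.63% and 19.5%, in the same order. Over the 91 members that reached the threshold in more than 1 stage, they took 14, 9, 7, 4, 6, 6 and 11 members. The stage of the highest mean was the same in KO and WT for 79 of 105 members (75.2%), beside 75.9% of all genes tested.

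The glucose carriers moved in opposite directions over the whole period. Slc2a1 (GLUT1), the general facilitative glucose carrier, stood at 14.3 and 13.3 in KO MII libraries, against 13.0, 12.9 and 13.8 in WT MII libraries, and at 11.2, 12.5, 11.5 and 11.6 in KO PN3 libraries, against 8.92, 10.8, 10.96 and 11.6 in WT PN3 libraries. Later it stood at 15.2, 12.9 and 10.7 in KO E2C libraries, against 12.4, 12.5 and 12.9 in WT E2C libraries, and at 5.57, 6.55 and 8.87 in KO L2C libraries, against 7.03, 5.16 and 8.19 in WT L2C libraries. Every L2C library was below every earlier library, and the genotypes overlapped at every stage. In WT it fell slightly at PN3 against MII (-0.31, adjusted p = 0.000524) and again at L2C against E2C (log2 difference -0.82, SE 0.24, adjusted p = 0.00638, limma with Benjamini-Hochberg adjustment). Slc2a3 (GLUT3), the high-affinity glucose carrier of neurons and of the later embryo, was at most 0.125 in every MII and PN3 library. At E2C it was 0.518, 0.551 and 0.789 in KO libraries, against 1.21, 0 and 0.592 in WT libraries, and at L2C 5.46, 4.71 and 6.03 in KO libraries, against 4.60, 5.32 and 5.38 in WT libraries. It entered through L2C libraries, so its rise at L2C (2.00 on the log2(value + 1) scale against E2C in WT) is a condition of membership. The L2C ranges of Slc2a1 and Slc2a3 overlapped. Neither was called between KO and WT at any of the 4 stages.

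Of 13 amino acid carriers in WT, 1 was called higher and 6 lower at PN3 against MII, beside 19.2% and 26.1% of all genes tested. The counts were 1 and 3 at E2C against PN3 (12.9% and 18.1% of all genes), 4 and 3 at L2C against E2C (34.1% and 18.3%), and 3 and 7 at L2C against MII (40.4% and 33.3%). Slc1a1 and Slc1a5 entered through L2C libraries, and without them the last comparison gave 1 and 7 of 11. The largest fall over the whole period was that of Slc7a11 (xCT), which takes up cystine in exchange for glutamate. It stood at 33.5 and 35.5 in KO MII libraries, against 34.8, 33.6 and 31.4 in WT MII libraries, and at 15.3, 14.9, 14.7 and 13.0 in KO PN3 libraries, against 13.6, 14.9, 15.5 and 13.3 in WT PN3 libraries. At E2C the values were 4.81, 6.87 and 12.7 in KO libraries, against 11.8, 11.7 and 14.1 in WT libraries, and at L2C 3.08, 9.08 and 8.63 in KO libraries, against 4.43, 6.69 and 8.47 in WT libraries. Every PN3 library lay below every MII library, and the genotypes overlapped at each stage. In WT it fell at PN3 against MII (log2 difference -1.16, SE 0.09, adjusted p = 2.49e-10, limma with Benjamini-Hochberg adjustment) and by 2.22 over the whole period (adjusted p = 7.56e-09). Slc3a2, the heavy chain that carries Slc7a11 and Slc7a5 to the membrane, changed less, with a mean of 26.9 ± 2.26 in KO (SD, n = 2) and 26.0 ± 0.869 in WT (SD, n = 3) at MII, and 20.4 ± 1.49 in KO and 17.9 ± 2.61 in WT at L2C (SD, n = 3 each). Its log2 difference at L2C against MII in WT was -0.52 (limma, Benjamini-Hochberg adjusted p = 0.0352).

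Slc7a5 (LAT1), which exchanges large neutral amino acids, took the other course. Its values were 9.93 and 9.79 in KO MII libraries, against 9.64, 9.81 and 10.3 in WT MII libraries, and 6.42, 6.57, 6.46 and 7.72 in KO PN3 libraries, against 6.59, 6.69, 6.43 and 7.15 in WT PN3 libraries. At E2C they were 7.08, 7.29 and 3.32 in KO libraries, against 8.36, 4.26 and 3.99 in WT libraries, and at L2C 35.1, 16.0 and 16.6 in KO libraries, against 28.5, 30.4 and 23.0 in WT libraries. All L2C libraries lay above all libraries of the earlier stages, and KO replicate 1 was the highest of them. In WT it rose at L2C against E2C (log2 difference 2.17, SE 0.30, adjusted p = 2.50e-06, limma with Benjamini-Hochberg adjustment), after a fall of 0.50 at PN3 (adjusted p = 2.53e-05). Slc1a5 (ASCT2), a sodium-coupled carrier of glutamine and other neutral amino acids, was at most 0.130 in every MII and PN3 library and 11.8, 6.44 and 8.23 in KO L2C libraries, against 14.0, 18.6 and 9.32 in WT L2C libraries. Slc1a1 (EAAT3), which takes up glutamate, aspartate and cysteine, was 12.6, 7.08 and 6.91 in KO L2C libraries, against 26.0, 22.4 and 8.12 in WT L2C libraries, after at most 1.97 in every earlier library. Both entered through L2C libraries. In each of them WT replicates 1 and 2 were higher than every KO library, and WT replicate 3 lay within the KO range.

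Slc6a9 (GLYT1), the glycine carrier, was the highest amino acid carrier at MII, PN3 and E2C in both genotypes. It stood at 70.1 and 66.2 in KO MII libraries, against 59.9, 59.2 and 63.1 in WT MII libraries, and at 54.2, 52.4, 60.2 and 65.7 in KO PN3 libraries, against 57.7, 54.9, 56.7 and 60.3 in WT PN3 libraries. Later it stood at 61.3, 58.0 and 46.9 in KO E2C libraries, against 56.7, 50.6 and 53.4 in WT E2C libraries, and at 22.3, 20.3 and 23.3 in KO L2C libraries, against 13.2, 20.6 and 21.3 in WT L2C libraries. Every L2C library was below every earlier library, and the KO range was above the WT range at MII alone. The WT fall at L2C against E2C was 1.52 on the log2 scale (SE 0.22, limma with Benjamini-Hochberg adjusted p = 3.46e-06). Slc6a9 overlaps the protein-coding gene Ccdc24 in the annotation, and its values are uncertain to that extent, because strand use in counting was not stated by the labels. The cationic amino acid carrier Slc7a2 also fell at that step in WT (-1.30, adjusted p = 0.000190). Slc7a1, another cationic amino acid carrier, fell by 0.85 at E2C against PN3 (adjusted p = 0.00263). Slc38a7, a lysosomal glutamine carrier, was not called over the whole period (log2 difference 0.02, adjusted p = 0.941).

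Of 26 Slc25 carriers in WT, 6 were called higher and 8 lower at PN3 against MII, beside 19.2% and 26.1% of all genes tested. The counts were 4 and 7 at E2C against PN3 (12.9% and 18.1% of all genes) and 12 and 4 at L2C against E2C (34.1% and 18.3%). At L2C against MII they were 13 and 11. Their median at L2C against MII was 0.53 (log2), beside -0.27 over the 79 other members and 0.13 over all genes tested. Called higher were 50.0% of them, beside 40.4% of all genes tested, and called lower 42.3%, beside 33.3%. Only 2 of 26 were not called in that comparison. Membership of Slc25a11, Slc25a36 and Slc25a51 rests on L2C libraries alone, and without them the median of the other 23 was -0.21, with 10 called higher and 11 lower. At L2C against E2C those 23 gave 9 higher and 4 lower.

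The ADP/ATP carriers of the inner membrane fell in WT over the whole period. Slc25a5 (ANT2), the highest of them, stood at 28.2 and 32.7 in KO MII libraries, against 31.7, 31.2 and 31.2 in WT MII libraries, and at 16.9, 22.1 and 20.8 in KO L2C libraries, against 16.9, 17.2 and 26.6 in WT L2C libraries. Slc25a4 (ANT1) stood at 16.6 and 17.8 in KO MII libraries, against 20.1, 18.1 and 17.2 in WT MII libraries, and at 6.37, 8.08 and 12.5 in KO L2C libraries, against 5.80, 4.12 and 7.29 in WT L2C libraries. Slc25a31 (ANT4), the germ-cell form, stood at 14.4 and 18.1 in KO MII libraries, against 13.9, 14.1 and 12.7 in WT MII libraries, and at 1.24, 3.38 and 4.13 in KO L2C libraries, against 3.75, 2.99 and 1.37 in WT L2C libraries. In each case every L2C library of either genotype lay below every MII library. The WT log2 differences at L2C against MII were -0.64, -1.56 and -2.03, with limma Benjamini-Hochberg adjusted p of 0.00145, 9.67e-06 and 4.03e-07. The ATP-Mg/phosphate carriers ran the other way. Slc25a25 stood at 0.971 and 0.986 in KO MII libraries, against 1.48, 1.24 and 1.18 in WT MII libraries, and at 30.5, 21.3 and 23.9 in KO L2C libraries, against 46.5, 54.1 and 31.1 in WT L2C libraries. Slc25a23 stood at 8.89 and 8.18 in KO MII libraries, against 7.32, 6.42 and 7.25 in WT MII libraries, and at 15.6, 15.1 and 14.5 in KO L2C libraries, against 16.7, 17.8 and 14.6 in WT L2C libraries. Every L2C library of both was above every MII library. They rose by 4.25 and 1.12 in WT (adjusted p = 2.21e-13 and 6.85e-07). Slc25a25 overlaps Naif1 in the annotation.

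Slc25a44, which brings branched-chain amino acids into mitochondria, was the highest Slc25 carrier in L2C embryos. It stood at 7.90 and 7.06 in KO MII libraries, against 7.36, 7.45 and 7.45 in WT MII libraries, and at 9.33, 9.22, 8.68 and 8.88 in KO PN3 libraries, against 9.29, 9.48, 9.01 and 9.11 in WT PN3 libraries. Later it stood at 9.49, 8.74 and 9.67 in KO E2C libraries, against 11.3, 14.8 and 9.87 in WT E2C libraries, and at 63.1, 49.3 and 44.5 in KO L2C libraries, against 121, 94.8 and 64.3 in WT L2C libraries. Each L2C library was above every earlier library, and every KO L2C library was below every WT L2C library. In WT it rose at L2C against E2C (log2 difference 2.83, SE 0.22, adjusted p = 6.13e-10, limma with Benjamini-Hochberg adjustment). Slc25a3, the phosphate carrier, rose by 2.18 at that step, the pyrimidine nucleotide carrier Slc25a33 by 2.81, and Slc25a38, a glycine carrier needed for haem synthesis, by 1.29 (adjusted p = 2.01e-06, 1.23e-06 and 0.00238).

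Among the Slc25 carriers that fell, Slc25a17, the peroxisomal carrier of coenzyme A and other adenine cofactors, stood at 24.7 and 24.3 in KO MII libraries, against 24.2, 23.1 and 24.6 in WT MII libraries, and at 17.2, 17.5, 22.7 and 24.3 in KO PN3 libraries, against 16.0, 17.8, 21.9 and 22.1 in WT PN3 libraries. At E2C it was 3.36, 5.72 and 15.6 in KO libraries, against 3.87, 5.43 and 5.56 in WT libraries, and at L2C 1.84, 2.63 and 2.74 in KO libraries, against 3.55, 4.50 and 3.61 in WT libraries. KO E2C replicate 3, at 15.6, lay far above the other 5 E2C libraries. The WT fall at L2C against MII was 2.36 (SE 0.27, adjusted p = 5.93e-08). Slc25a48 stood at 84.4, 90.6 and 77.9 in KO E2C libraries, against 85.2, 95.6 and 88.9 in WT E2C libraries, and at 42.0, 40.1 and 38.6 in KO L2C libraries, against 29.9, 26.7 and 38.6 in WT L2C libraries. It fell by 1.49 at that step in WT (adjusted p = 2.59e-07). Slc25a1, the citrate carrier, stood at 7.63, 7.32, 8.75 and 9.87 in KO PN3 libraries, against 10.2, 8.32, 8.92 and 10.5 in WT PN3 libraries, and at 3.59, 8.01 and 4.98 in KO E2C libraries, against 1.11, 0 and 4.94 in WT E2C libraries. The value of 0 belongs to WT E2C replicate 2, and without that library the WT log2 difference at E2C against PN3 was -1.55 (adjusted p = 0.000997), against -2.17 with it. Slc25a15, the ornithine carrier, lay between 32.1 and 53.9 in every library.

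Zinc carriers made up most of the metal class, in which 1 member was called higher and 7 lower at PN3 against MII, 6 and 2 at L2C against E2C, and 5 and 5 at L2C against MII in WT. All genes tested gave 19.2% and 26.1%, 34.1% and 18.3%, and 40.4% and 33.3%. Without the 4 of these 13 that entered through 1 stage (Slc30a4, Slc39a1, Slc39a4 and Slc41a2), the counts were 1 and 5, 4 and 2, and 3 and 3. Slc30a5 (ZnT5), which loads zinc into the early secretory pathway, stood at 17.4 and 19.8 in KO MII libraries, against 19.0, 18.9 and 18.8 in WT MII libraries, and at 4.30, 3.82, 6.00 and 6.30 in KO PN3 libraries, against 4.53, 4.04, 5.25 and 5.25 in WT PN3 libraries. At E2C it was 1.32, 1.30 and 0.808 in KO libraries, against 1.72, 0 and 1.40 in WT libraries, and at L2C 5.54, 10.7 and 7.40 in KO libraries, against 19.2, 17.3 and 9.68 in WT libraries. It was lowest at E2C in both genotypes and higher again in every L2C library. In WT it fell at PN3 against MII (log2 difference -1.79, SE 0.11, adjusted p = 8.44e-12, limma with Benjamini-Hochberg adjustment) and rose at L2C against E2C by 3.08, or 2.59 without WT E2C replicate 2. Slc30a1, the zinc exporter of the plasma membrane, fell by 0.92 at PN3 (adjusted p = 3.30e-11), was not called at E2C, and rose by 2.29 at L2C (adjusted p = 3.12e-08), above its MII level. Slc30a3 stood at 112, 103 and 75.0 in KO E2C libraries, against 81.4, 66.0 and 98.4 in WT E2C libraries, and at 30.6, 22.0 and 25.2 in KO L2C libraries, against 10.1, 14.2 and 26.2 in WT L2C libraries. At L2C WT replicate 3 lay within the KO range and the other WT libraries below it.

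The importers Slc39a6 (ZIP6) and Slc39a10 (ZIP10), which take zinc into the maturing mouse oocyte, were among the highest members at every stage. Slc39a6 stood at 76.8 and 74.2 in KO MII libraries, against 78.7, 79.7 and 75.7 in WT MII libraries, and at 33.8, 38.1 and 39.6 in KO L2C libraries, against 45.0, 44.2 and 44.0 in WT L2C libraries. Slc39a10 stood at 70.1 and 69.4 in KO MII libraries, against 69.8, 66.4 and 66.8 in WT MII libraries, and at 61.1, 65.4 and 66.5 in KO L2C libraries, against 40.3, 60.5 and 72.7 in WT L2C libraries. Slc39a6 fell by 0.80 at L2C against MII in WT (adjusted p = 3.46e-07), while Slc39a10 had a log2 difference of -0.26 (adjusted p = 0.105) and was not called. Slc39a4 (ZIP4), the zinc importer of gut and yolk sac, was at most 0.424 before L2C and 12.3, 5.77 and 6.87 in KO L2C libraries, against 19.3, 16.6 and 8.76 in WT L2C libraries. Slc39a4 and Slc39a1 entered through L2C libraries.

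The 18 inorganic ion carriers held the largest rise and several of the falls. In WT, 3 were called higher and 10 lower at L2C against MII, with a median of -0.87 (log2), beside 40.4% higher, 33.3% lower and a median of 0.13 over all genes tested. Without Slc4a11, which entered through L2C libraries, 2 and 10 of 17 were called, with a median of -0.95. Slc34a2 (NaPi-IIb), which takes up phosphate with sodium, was at most 0.395 in every MII and PN3 library. At E2C it stood at 6.94, 4.28 and 8.71 in KO libraries, against 14.7, 11.4 and 12.3 in WT libraries, and at L2C 149, 108 and 113 in KO libraries, against 161, 204 and 159.8 in WT libraries. Every E2C library was above every earlier one and every L2C library far above E2C, and KO libraries lay below WT libraries at both stages with no overlap. In WT it rose at E2C against PN3 (log2 difference 3.45, SE 0.20, adjusted p = 3.80e-11, limma with Benjamini-Hochberg adjustment) and again at L2C (log2 difference 3.67, SE 0.27, adjusted p = 2.73e-10). Slc20a1 (PiT-1), another sodium-phosphate carrier, was 20.6 and 18.3 in KO MII libraries, against 18.3, 17.9 and 18.7 in WT MII libraries, and 23.4, 37.5 and 40.9 in KO L2C libraries, against 16.9, 20.7 and 32.0 in WT L2C libraries. Slc12a2 (NKCC1), which imports sodium, potassium and chloride, rose by 3.18 at L2C against E2C in WT (adjusted p = 1.06e-09).

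Among the ion carriers that fell, Slc12a7 (KCC4), a potassium-chloride exporter, stood at 15.2 and 14.4 in KO MII libraries, against 12.6, 12.2 and 13.5 in WT MII libraries, and at 5.68, 5.42, 5.76 and 6.88 in KO PN3 libraries, against 4.37, 3.38, 4.14 and 4.70 in WT PN3 libraries. Later it stood at 3.25, 3.22 and 2.10 in KO E2C libraries, against 2.08, 1.50 and 1.77 in WT E2C libraries, and at 1.78, 2.40 and 2.65 in KO L2C libraries, against 1.51, 3.15 and 2.46 in WT L2C libraries. The fall began at PN3, where no library overlapped MII. Its WT log2 difference at PN3 against MII was -1.42 (SE 0.08, adjusted p = 7.31e-13). The bicarbonate carrier Slc4a8 stood at 12.8 and 11.9 in KO MII libraries, against 9.72, 10.4 and 10.4 in WT MII libraries, and at 3.02, 2.30 and 2.57 in KO L2C libraries, against 1.97, 1.54 and 1.88 in WT L2C libraries. Every L2C library was below every MII library, and it fell over the whole period in WT (adjusted p = 1.28e-11).

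Some of the largest rises were those of vitamin and monocarboxylate carriers. Slc19a3, a thiamine carrier, was at most 0.494 in every MII and PN3 library. It stood at 3.11, 1.74 and 3.60 in KO E2C libraries, against 4.65, 6.05 and 6.27 in WT E2C libraries, and at 41.3, 64.7 and 57.0 in KO L2C libraries, against 79.2, 68.4 and 72.2 in WT L2C libraries. At E2C every WT library was above every KO library, and likewise at L2C. It rose by 2.38 at E2C against PN3 and by 3.49 at L2C against E2C in WT (adjusted p = 3.48e-08 and 1.73e-09). Slc16a6, a member of the monocarboxylate family with a ketone body role described in zebrafish liver, was at most 0.443 at MII and PN3. Its 2-cell values were 3.90, 3.42 and 5.80 in KO E2C libraries, against 7.09, 4.11 and 7.34 in WT E2C libraries, and 21.5, 26.4 and 27.7 in KO L2C libraries, against 35.2, 35.7 and 33.4 in WT L2C libraries. It overlaps Arsg in the annotation. Slc5a6, which takes up biotin and pantothenate, was 31.7, 21.0 and 25.7 in KO L2C libraries, against 66.6, 60.5 and 28.5 in WT L2C libraries after at most 5.02 before, entered through L2C libraries and overlaps Atraid. Slc23a2, a vitamin C carrier, fell by 0.60 at PN3 and by 0.90 at E2C in WT (adjusted p = 5.81e-06 and 0.00762).

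Slc16a1 (MCT1), a lactate and pyruvate carrier, was lower at PN3 and E2C than at MII and L2C. It stood at 9.46 and 10.0 in KO MII libraries, against 9.41, 10.5 and 9.68 in WT MII libraries, and at 5.15, 5.27, 5.04 and 4.95 in KO PN3 libraries, against 4.66, 4.20, 5.01 and 4.67 in WT PN3 libraries. Later it stood at 3.04, 4.05 and 2.74 in KO E2C libraries, against 4.25, 2.68 and 3.59 in WT E2C libraries, and at 7.78, 12.9 and 12.7 in KO L2C libraries, against 8.75, 4.88 and 12.3 in WT L2C libraries. Its WT fall at PN3 was 0.95 and its rise at L2C 1.03 (adjusted p = 4.86e-10 and 0.00338), and its L2C values ranged widely in both genotypes. In the Slc35 family, Slc35b3, which carries the sulphate donor PAPS into the Golgi, stood at 10.7 and 10.5 in KO MII libraries, against 10.7, 10.3 and 11.7 in WT MII libraries, and at 1.67, 1.93, 2.97 and 2.44 in KO PN3 libraries, against 1.62, 2.12, 2.68 and 3.05 in WT PN3 libraries. It was at most 1.35 in every 2-cell library. It had the largest WT fall of any member at L2C against MII (log2 difference -3.24, SE 0.30, adjusted p = 1.43e-09) and entered through MII libraries. Slc35b1, which brings ATP into the endoplasmic reticulum, had a log2 difference of -2.14 at E2C against PN3 in WT, or -1.93 without WT E2C replicate 2, and both passed the test. Slc35e3, of unsettled substrate, was at most 0.246 at MII and PN3 and rose by 2.20 at E2C in WT (adjusted p = 4.92e-07). The choline carrier Slc44a2 fell by 1.24 at PN3 (adjusted p = 9.69e-13), and the taurine carrier Slc6a6 fell by 0.36 over the whole period (adjusted p = 0.0296).

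Members with other roles followed several of these courses. Slc15a4, a lysosomal carrier of histidine and peptides, fell at PN3 and E2C and rose at L2C in WT, with log2 differences of -1.22, -0.93 and 0.99 (adjusted p = 3.20e-10, 0.0115 and 0.0209). Slc31a2, a copper carrier, fell at PN3 and E2C by 0.88 and 1.11 (adjusted p = 1.90e-06 and 0.0151), and without WT E2C replicate 2 the E2C difference was -0.81 (adjusted p = 0.0743). Slc52a2, a riboflavin carrier, fell by 1.09 at E2C and rose by 1.24 at L2C (adjusted p = 0.00888 and 0.0107). Its L2C values were 4.30, 3.08 and 3.78 in KO libraries, against 5.36, 9.13 and 4.62 in WT libraries, with every KO library below every WT library and no call (-0.60, adjusted p = 0.408). Slc25a26, the mitochondrial S-adenosylmethionine carrier, fell by 1.80 at L2C against MII (adjusted p = 6.35e-08) and overlaps Lrig1 in the annotation. Slc37a3, a sugar-phosphate carrier family member, was called higher at L2C against E2C (adjusted p = 0.0163), but without WT E2C replicate 2 its log2 difference was 0.36 (adjusted p = 0.233). Slc22a23 was also called at that step (log2 difference 0.67), and without that library was not (0.43). In the Slc35 family, Slc35a4 rose by 0.61 over the whole period (adjusted p = 0.000978) and overlaps Apbb3, while Slc35c2 and Slc35a5 were not called at any step. Slc16a13, of the monocarboxylate family, fell by 0.82 over the whole period (adjusted p = 0.00898).

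Transport genes outside the symbol rule were counted for comparison. At L2C against MII in WT, 8 of 28 tested ABC transporters were called higher and 13 lower, 3 of 17 V-ATPase subunits higher and 8 lower, 1 of 11 sodium-potassium and calcium pumps higher and 4 lower, and 10 of 22 carrier partners and carriers with other symbols higher and 8 lower, beside 40.4% and 33.3% of all genes tested.

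Promoter sequences are shown for 3 members with the largest called WT rise at L2C against MII and 3 with the largest called WT fall. Only members with an entry in the RefSeq promoter table were taken. Slc5a6 entered through L2C libraries and Slc35b3 through MII libraries, so their stage pattern is a condition of membership. Each sequence is the 250 bases before the annotated start, 5′ to 3′ on the gene's strand, from RefSeq (GRCm38.p6). Slc5a6 and Slc35b3 have 2 starts in that table, of which the first listed was used, and 62 bases of the Slc5a6 window and 47 of the Slc25a17 window also lie in a GENCODE transcript of the same gene. The bases just after the window lie whole in such a transcript for Slc19a3, Slc5a6, Slc25a17 and Slc7a11. For Slc35b3 only the last part of them does. For Slc34a2 no match was found, so its start was not matched to a transcript and its window may be misplaced. Capitals mark matches on either strand to 4 motifs. The core promoter element TATAAA places the transcription start in many genes. A common upstream element, CCAAT, is bound by NF-Y. The Sp1-type GC box is GGGCGG in letters. The homeodomain site TAATCC is of the kind bound by OBOX factors of the mouse 2-cell embryo. The coordinates are chr5:53049103-53049352 (plus strand) for Slc34a2, chr1:83038449-83038698 (minus) for Slc19a3, chr5:31048563-31048812 (minus) for Slc5a6, chr13:38960880-38961129 (minus) for Slc35b3, chr15:81360766-81361015 (minus) for Slc25a17 and chr3:50443614-50443863 (minus) for Slc7a11, first the rising and then the falling carriers.
Slc34a2: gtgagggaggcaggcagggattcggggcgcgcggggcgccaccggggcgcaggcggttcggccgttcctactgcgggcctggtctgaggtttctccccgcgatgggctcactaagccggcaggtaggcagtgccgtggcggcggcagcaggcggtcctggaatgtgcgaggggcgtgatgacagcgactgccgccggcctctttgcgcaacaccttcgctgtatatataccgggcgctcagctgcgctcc
Slc19a3: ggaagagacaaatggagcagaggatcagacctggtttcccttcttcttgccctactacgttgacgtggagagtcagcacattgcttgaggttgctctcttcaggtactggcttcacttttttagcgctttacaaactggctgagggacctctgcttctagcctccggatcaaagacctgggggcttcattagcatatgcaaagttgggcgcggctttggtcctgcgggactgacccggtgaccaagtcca
Slc5a6: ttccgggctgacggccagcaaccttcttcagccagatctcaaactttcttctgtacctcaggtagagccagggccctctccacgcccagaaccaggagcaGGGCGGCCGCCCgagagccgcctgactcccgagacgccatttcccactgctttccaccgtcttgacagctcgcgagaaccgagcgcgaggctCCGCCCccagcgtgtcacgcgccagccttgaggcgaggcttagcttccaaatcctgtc
Slc35b3: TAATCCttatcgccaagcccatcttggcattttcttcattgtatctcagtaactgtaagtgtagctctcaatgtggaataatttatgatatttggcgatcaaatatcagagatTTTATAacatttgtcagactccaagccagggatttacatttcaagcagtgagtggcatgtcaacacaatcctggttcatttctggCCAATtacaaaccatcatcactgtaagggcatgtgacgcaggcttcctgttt
Slc25a17: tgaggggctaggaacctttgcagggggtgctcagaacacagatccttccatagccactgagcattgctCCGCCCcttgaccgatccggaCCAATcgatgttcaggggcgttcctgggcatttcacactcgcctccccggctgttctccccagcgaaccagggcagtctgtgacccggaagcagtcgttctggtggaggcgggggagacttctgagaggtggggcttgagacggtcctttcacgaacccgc
Slc7a11: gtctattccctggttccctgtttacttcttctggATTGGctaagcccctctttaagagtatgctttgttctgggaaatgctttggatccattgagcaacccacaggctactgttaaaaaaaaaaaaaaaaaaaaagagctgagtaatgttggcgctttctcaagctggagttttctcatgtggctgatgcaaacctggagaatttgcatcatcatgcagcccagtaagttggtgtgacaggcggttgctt
Slc34a2 and Slc19a3 held no exact match to the 4 motifs in these windows, though Slc34a2 has the run tatatata near the end of its window. Slc5a6 held 3 GC boxes, the first pair of them side by side on opposite strands. Slc35b3 held 1 homeodomain site, 1 NF-Y element and 1 TATAAA match. That TATAAA match begins at base 114 of the window, on the opposite strand, and is a match of letters only. Slc25a17 held a GC box and an NF-Y element, and Slc7a11 an NF-Y element. The CG dinucleotide occurred 28, 8 and 20 times in the rising carriers and 3, 14 and 2 times in the falling ones, while its median was 19 over all 23 members called higher and 14 over all 38 called lower that have an entry. Windows of the same length were searched, 1 per gene, at any position and on either strand. The GC box was found in 62.8% of the 78 members with an entry and 32.9% of 27025 promoters. The NF-Y element was found in 34.6% and 34.5%, TATAAA in 7.69% and 13.0%, and the homeodomain site in 7.69% and 6.38%. The 27025 promoters were not chosen by expression as the members were. A gap between these sets therefore cannot be read as particular to solute carriers. Of members called higher at L2C against MII 23 have an entry, and of members called lower 38. The GC box was found in 69.6% and 63.2% of these, and TATAAA in 0% and 13.2%. The median CG count was 15 in members and 6 in all promoters. These are counts of letters, not of bound sites. The members called higher or lower include some that entered through 1 stage, such as Slc5a6 and Slc35b3.

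KO and WT were compared at each stage to see which carriers differ after loss of maternal Smarca4. In MII oocytes 16 members were called, 8 higher in KO (7.62%) and 8 lower (7.62%), beside 13.0% of all genes tested, 5.99% higher and 6.99% lower. The median over members was -0.01 (log2), beside 0.00 over all genes tested. These shares are near the background. The KO libraries lay wholly above the WT libraries in 20 members and wholly below in 21, beside 19.6% and 20.8% of all genes tested. Among the classes, 1 amino acid carrier was called higher and 2 lower, 2 Slc25 carriers higher and 3 lower, 2 inorganic ion carriers higher, and neither glucose carrier was called. The differences were small: 14 of the 16 called members differed by less than 0.50 on the log2 scale. With MII fitted alone, 3 members were called, all lower: Slc1a1, Slc25a14 and Slc25a3. With 1 spread shared by all stages limma called 0, with 2 members at an unadjusted p under 0.05. Leaving out WT replicate 1, 2 or 3 gave 10, 9 and 9 members, and leaving out KO replicate 1 or 2 gave 10 and 19.

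The largest difference among members called lower in KO oocytes was that of the glutamate carrier Slc1a1. It stood at 0.0940 and 0.192 in KO libraries, against 0.961, 0.774 and 0.743 in WT libraries. The KO values were below every WT value, and both genotypes were under 1 scaled FPKM (log2 difference -0.68, SE 0.10, adjusted p = 0.000122, limma with Benjamini-Hochberg adjustment). Slc41a2, a magnesium carrier, stood at 2.70 and 4.20 in KO libraries, against 6.38, 6.24 and 5.01 in WT libraries, with KO replicate 1 the lowest and no overlap (log2 difference -0.64, SE 0.11, adjusted p = 0.000345). Slc41a2 entered through WT MII libraries, so a lower KO level there is in part a condition of membership. Slc38a8, a glutamine carrier, reached the threshold in WT libraries alone, 3 of MII and 1 of PN3, so the same limit applies to it (log2 difference -0.36, SE 0.08, adjusted p = 0.00455). Slc25a14, a mitochondrial carrier related to the uncoupling proteins, stood at 4.20 and 4.06 in KO libraries, against 5.53, 6.67 and 6.32 in WT libraries, all KO below all WT (log2 difference -0.48, SE 0.09, adjusted p = 0.000841). Slc25a3, the phosphate carrier, stood at 7.08 and 7.13 in KO libraries, against 8.91, 9.39 and 9.01 in WT libraries, again with no overlap (log2 difference -0.32, SE 0.08, adjusted p = 0.00833). Slc25a13 (citrin), the aspartate-glutamate carrier, Slc10a6, a carrier of steroid sulphates, and Slc43a3, a purine nucleobase carrier, had log2 differences of -0.36, -0.33 and -0.20 (adjusted p = 0.0407, 0.0274 and 0.0478).

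Called higher in KO oocytes was first Slc23a2, the vitamin C carrier, at 57.1 and 47.0 in KO libraries, against 41.1, 35.3 and 43.8 in WT libraries. Both KO libraries were above the highest WT library (log2 difference 0.37, SE 0.08, adjusted p = 0.00480, limma with Benjamini-Hochberg adjustment). Slc4a8, a sodium-driven chloride-bicarbonate exchanger, stood at 12.8 and 11.9 in KO libraries, against 9.72, 10.4 and 10.4 in WT libraries (log2 difference 0.25, SE 0.05, adjusted p = 0.00266), and Slc25a23, an ATP-Mg/phosphate carrier, at 8.89 and 8.18 in KO libraries, against 7.32, 6.42 and 7.25 in WT libraries (log2 difference 0.25, SE 0.06, adjusted p = 0.00473). In both the KO range lay above the WT range. Also called higher were Slc15a5, Slc25a16, the proline carrier Slc6a7 and the taurine carrier Slc6a6, with log2 differences of 0.26, 0.26, 0.24 and 0.19 and adjusted p of 0.0214, 0.0330, 0.0185 and 0.0263. With FPKM as deposited, 4 members were higher and 11 lower.

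**Figure D3:**
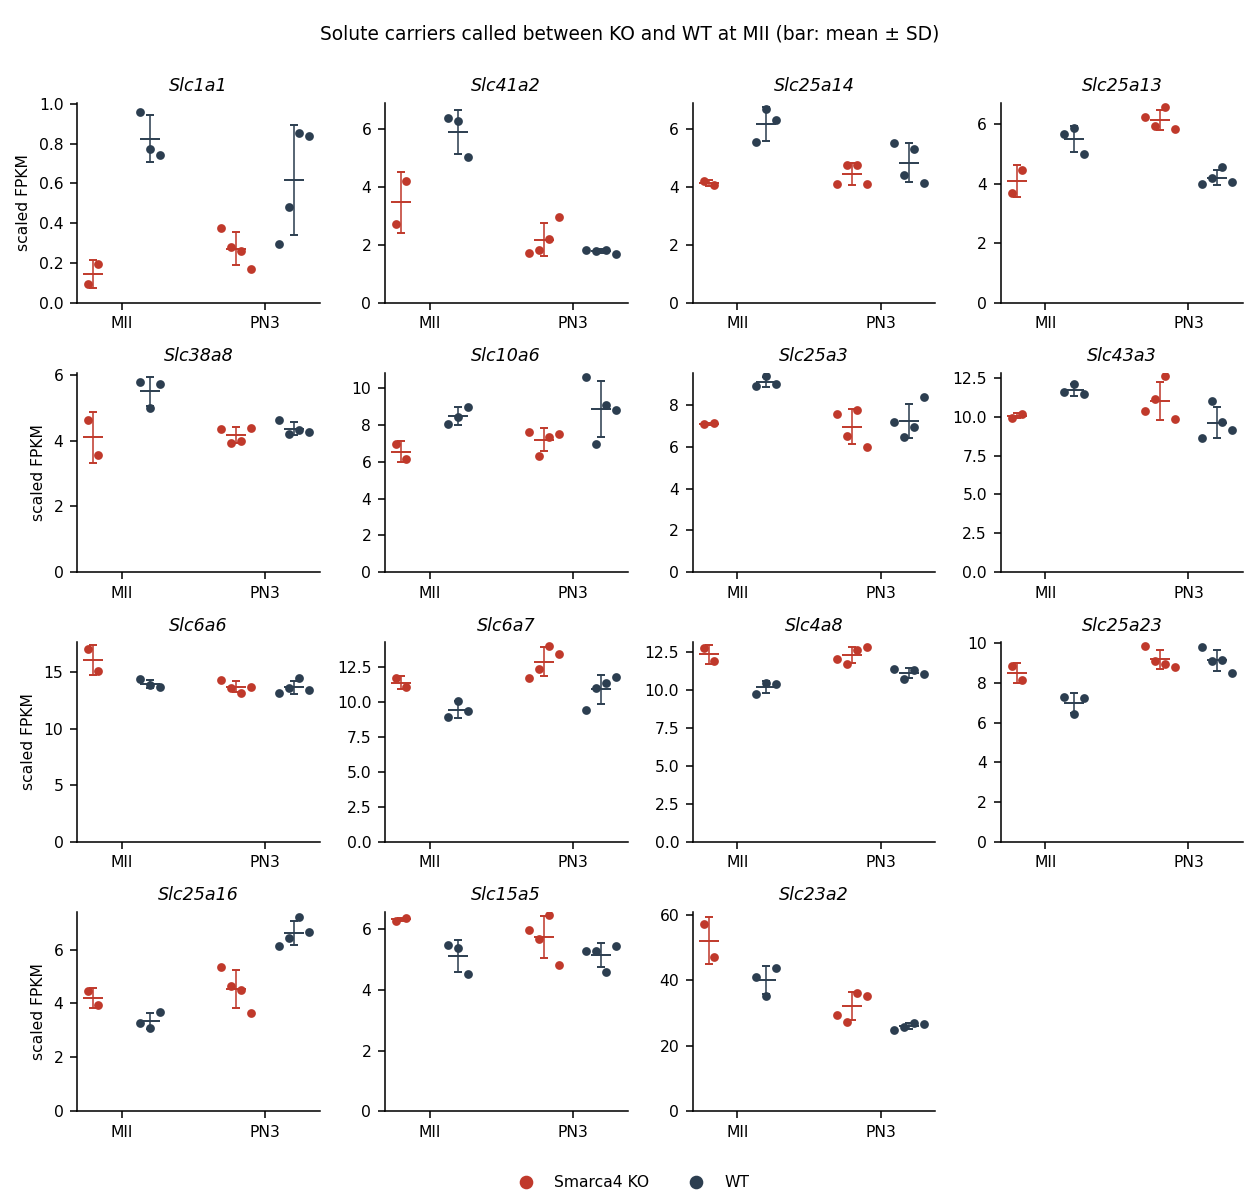
15 of the members called between KO and WT oocytes, as scaled FPKM per library (vertical axis, from 0) at MII and PN3, KO points left of WT points, with bars for the group mean ± SD. At MII each KO group lies apart from its WT group. At PN3 Slc25a16 is lower in KO and Slc25a13 higher in KO, the reverse of MII.

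In PN3 zygotes 4 members were called, 3 higher in KO (2.86%) and 1 lower (0.952%), beside 3.05% of all genes tested, 1.78% higher and 1.27% lower. The KO libraries lay wholly above WT in 9 members and wholly below in 7, beside 5.09% and 5.11% of all genes tested. Slc35b1, which carries ATP into the endoplasmic reticulum, stood at 6.51, 6.72, 8.87 and 8.66 in KO libraries, against 4.55, 4.14, 6.12 and 5.24 in WT libraries. KO replicates 3 and 4 and WT replicates 3 and 4 were the higher of their groups, and every KO library was above every WT library (log2 difference 0.53, SE 0.12, adjusted p = 0.0148, limma with Benjamini-Hochberg adjustment). Slc12a7 stood at 5.68, 5.42, 5.76 and 6.88 in KO libraries, against 4.37, 3.38, 4.14 and 4.70 in WT libraries (log2 difference 0.43, SE 0.09, adjusted p = 0.00702), and Slc44a2 at 19.8, 18.8, 24.1 and 22.4 in KO libraries, against 15.7, 15.7, 17.1 and 16.1 in WT libraries (log2 difference 0.37, SE 0.08, adjusted p = 0.00910). In both the KO range lay above the WT range. All 3 were higher at MII than at E2C in WT. The oocyte marker sum averaged 2023 in KO and 1868 in WT at PN3, and 2 of its 8 genes were called higher in KO; its part in these differences was not tested. Slc25a16, tied to coenzyme A in mitochondria, was the member called lower, at 5.35, 4.63, 4.51 and 3.65 in KO libraries, against 6.15, 6.41, 7.19 and 6.66 in WT libraries (log2 difference -0.46, SE 0.09, adjusted p = 0.00574). With PN3 fitted alone 1 member was called, Slc25a13, which was higher, and without KO replicate 3 there were 2.

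The KO effect itself differed between PN3 and MII in 3 members, beside 2.29% of all genes tested: 2 with a higher KO effect at PN3 (1.39% of all genes) and 1 with a lower one (0.902%). Slc25a13 stood at 3.71 and 4.48 in KO MII libraries, against 5.66, 5.87 and 5.00 in WT MII libraries, and at 6.24, 5.95, 6.57 and 5.85 in KO PN3 libraries, against 3.99, 4.21, 4.56 and 4.05 in WT PN3 libraries. It was lower in every KO oocyte library and higher in every KO zygote library (difference of effects 0.82, SE 0.18, limma with Benjamini-Hochberg adjusted p = 0.0149). Slc25a16 did the opposite, at 4.45 and 3.95 in KO MII libraries, against 3.29, 3.09 and 3.69 in WT MII libraries (difference of effects -0.72, SE 0.12, adjusted p = 0.00238). Slc41a2, lower in KO oocytes, stood at 1.70, 1.83, 2.18 and 2.96 in KO PN3 libraries, against 1.83, 1.77, 1.83 and 1.67 in WT PN3 libraries, where the groups overlapped (difference of effects 0.82, SE 0.17, adjusted p = 0.0115). Slc41a2 entered through WT MII libraries, so this difference is in part a condition of membership. With each comparison fitted alone 1 of the 3 tests remained a call, and without KO MII replicate 1 or replicate 2 there were 1 and 6.

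In E2C embryos 0 members were called by limma, beside 0.00828% of all genes tested, 0% higher and 0.00828% lower, and 6 members had an unadjusted p under 0.05. With 1 spread shared by all stages 2 were called. KO libraries lay wholly above WT in 5 members and wholly below in 8, beside 5.36% and 4.38% of all genes tested. Slc34a2 and Slc19a3 were among those wholly below. Slc34a2 stood at 6.94, 4.28 and 8.71 in KO libraries, against 14.7, 11.4 and 12.3 in WT libraries, each KO library below each WT library (log2 difference -0.89, SE 0.28, adjusted p = 0.668), and Slc19a3 at 3.11, 1.74 and 3.60 in KO libraries, against 4.65, 6.05 and 6.27 in WT libraries (log2 difference -0.83, SE 0.30, adjusted p = 0.742). Slc5a6 and Slc1a1, with log2 differences of -0.67 and -0.58, were also wholly below. None of these 4 passed the test. The 5 members wholly above are not named here, so the named ones do not show the direction of the members as a set. Summed 2-cell markers were 89.4, 95.2 and 189.6 in KO, against 197, 227 and 367 in WT libraries, and their part in these values was not tested. No difference of the KO effect between E2C and PN3 was called (0% of all genes tested), with 5 members at an unadjusted p under 0.05.

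In L2C embryos 0 members were called by limma, beside 0.770% of all genes tested, 0.447% higher and 0.323% lower, while 17 had an unadjusted p under 0.05. KO libraries lay wholly below WT in 16 members and wholly above in 7, beside 11.4% and 8.76% of all genes tested. Slc25a44, at 63.1, 49.3 and 44.5 in KO libraries, against 121, 94.8 and 64.3 in WT libraries, came nearest to a call (log2 difference -0.79, SE 0.21, adjusted p = 0.0618). Slc12a2 stood at 28.5, 25.6 and 26.5 in KO libraries, against 64.4, 48.0 and 33.6 in WT libraries, with the KO libraries close together and WT replicate 3 nearest to them (log2 difference -0.79, SE 0.24, adjusted p = 0.101). Slc29a2, an equilibrative nucleoside carrier that entered through WT L2C libraries, stood at 2.42, 4.37 and 4.91 in KO libraries, against 9.97, 12.5 and 6.14 in WT libraries (log2 difference -1.09, SE 0.37, adjusted p = 0.128). Slc25a25 (-0.76), Slc34a2 (-0.51), Slc16a6 (-0.46) and Slc19a3 (-0.45) were also wholly below, with adjusted p of 0.223, 0.298, 0.387 and 0.406. Wholly above were Slc26a6, Slc9b1, Slc35b4, Slc15a5, Slc4a8, Slc25a48 and Slc25a15, by 0.28 to 0.41 on the log2 scale.

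**Figure D4:**
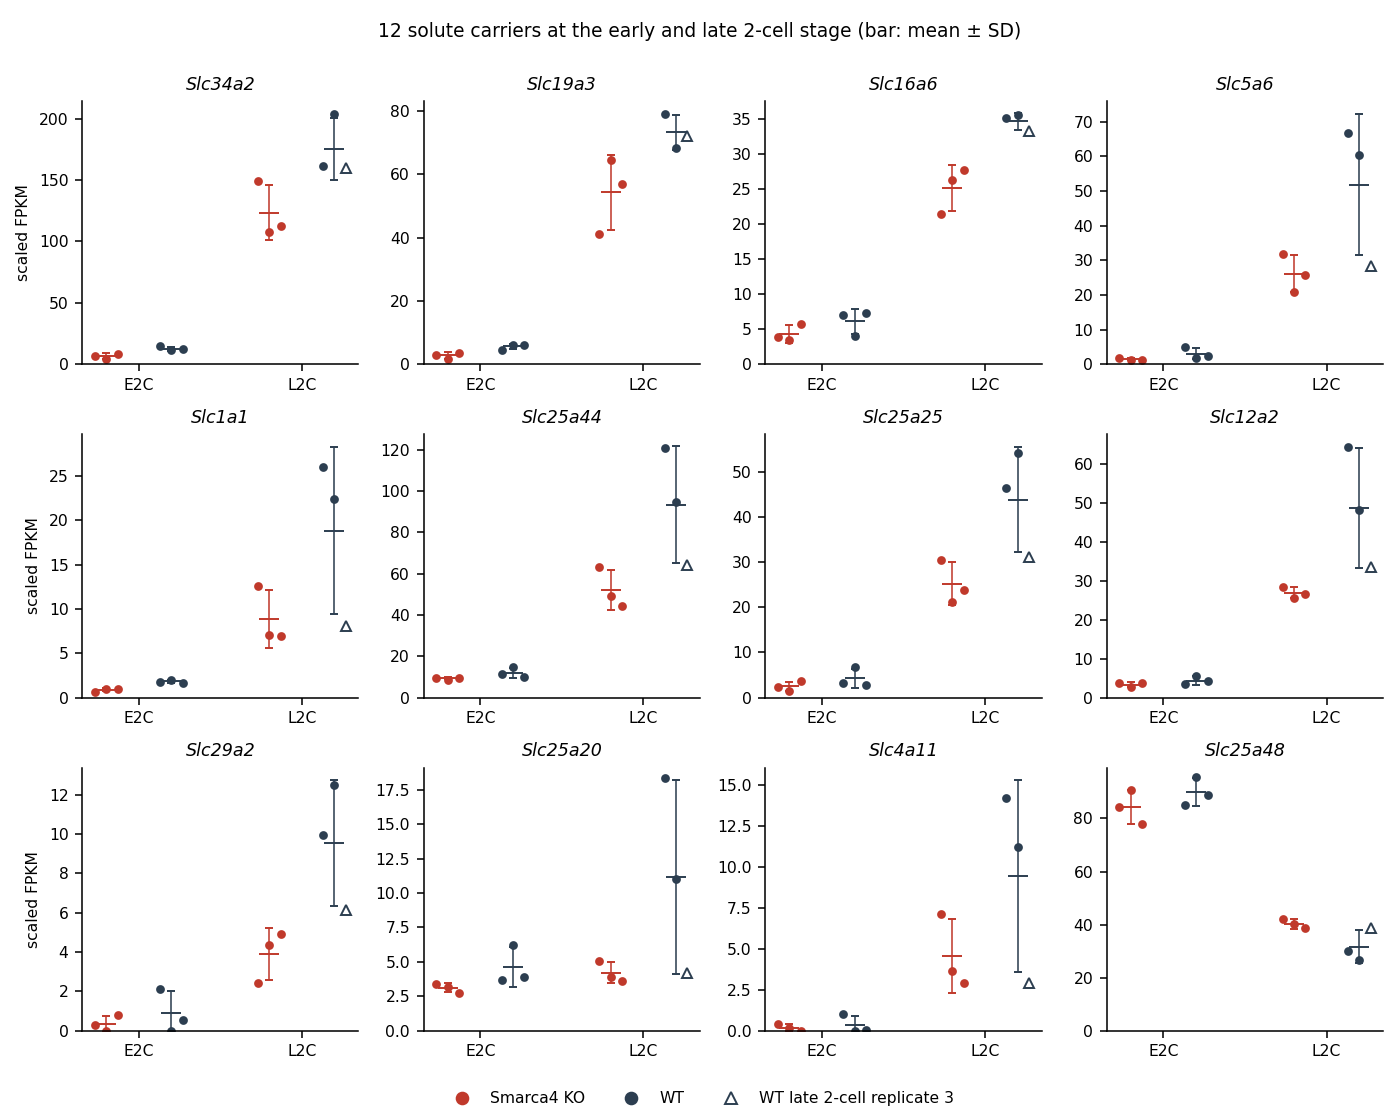
Scaled FPKM per library (vertical axis, from 0) of 12 members at E2C and L2C, KO points left of WT points, with bars for the group mean ± SD and WT L2C replicate 3 as an open triangle. In Slc25a44, Slc12a2, Slc1a1 and Slc5a6, WT replicates 1 and 2 stand highest and the triangle lies nearest to or within the KO range.

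The count of 0 at L2C changed with 1 library and with the error model. Without WT L2C replicate 3, whose marker sums stood with the KO libraries, 21 members were called, 8 higher in KO (7.62%) and 13 lower (12.4%), beside 9.88% and 12.2% of all genes tested under that setting. These shares are near the background. Lower were Slc25a20, the carnitine-acylcarnitine carrier (-1.56), Slc1a1 (-1.40), Slc4a11 (-1.37), Slc29a2 (-1.35), Slc5a6 (-1.27), Slc30a5 (-1.15), Slc39a7 (-1.09), a zinc carrier of the endoplasmic reticulum, Slc39a4 (-1.09), Slc25a44 (-1.04), Slc12a2 (-1.02), Slc25a25 (-0.98), Slc1a5 (-0.84) and Slc44a2 (-0.84). Their limma Benjamini-Hochberg adjusted p ran between 0.000375 (Slc25a44) and 0.0307 (Slc30a5). Higher were Slc25a35 (1.56), Slc30a3 (1.04), Slc10a6 (1.02), Slc35f6 (0.93), Slc20a1 (0.79), Slc7a2 (0.72), Slc35b4 (0.53) and Slc25a48 (0.49). Slc30a5, for example, stood at 5.54, 10.7 and 7.40 in KO libraries, against 19.2, 17.3 and 9.68 in WT libraries, with WT replicates 1 and 2 above the KO libraries and replicate 3 within their range. The library left out was chosen after the data were seen, and the WT group then has 2 libraries. Slc25a20, Slc29a2 and Slc39a7 entered through WT libraries. The part of the marker sums in these calls was not tested. With all libraries kept and 1 weight per library 35 members were called, 14 higher (13.3%) and 21 lower (20.0%), beside 14.1% and 16.5% of all genes tested. With 1 spread shared by all stages 15 were called, 5 higher (4.76%) and 10 lower (9.52%), beside 7.73% and 7.77% of all genes tested. The KO effect at L2C against E2C differed in 0 members by limma (0.00828% of all genes tested, 0% higher and 0.00828% lower), with 5 at an unadjusted p under 0.05, and in 2 without that library.

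**Figure D5:**
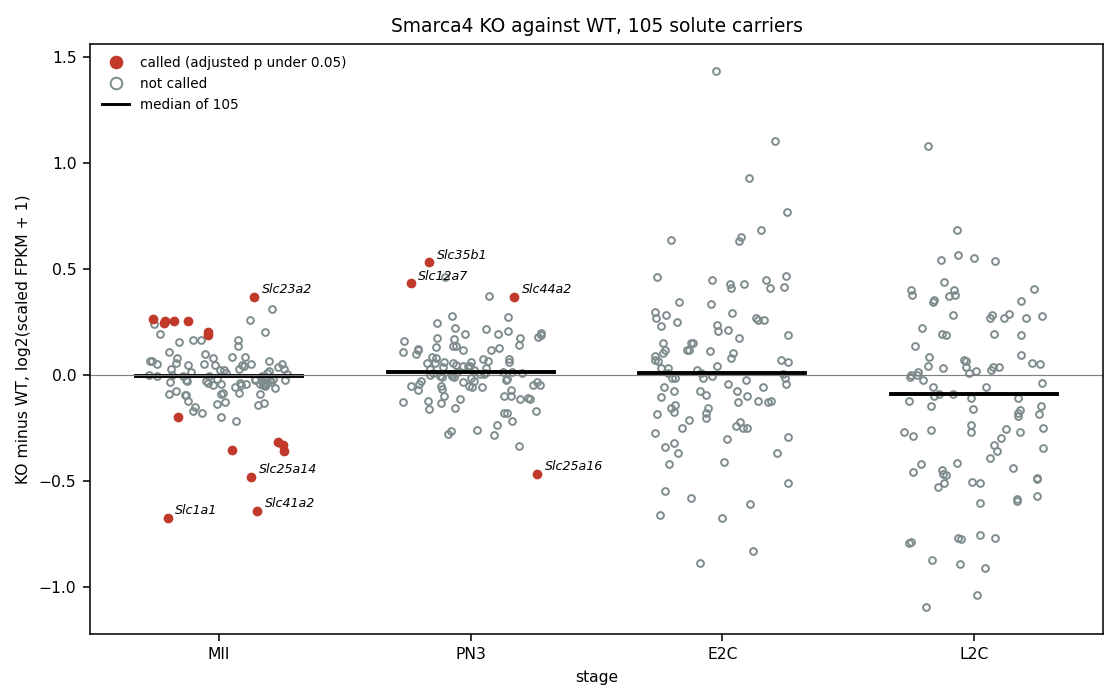
The KO minus WT difference, log2(scaled FPKM + 1), of the 105 members at each stage, 1 point per member, with called members filled in red and the median of the members as a black line. There are 16 filled points at MII, 4 at PN3 and 0 at E2C and L2C, and the points spread more widely at the 2-cell stages, where libraries of a group also vary more.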

How the data were processed

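FPKM values per gene were deposited for each of 25 libraries. Per the labels' protocols, libraries came from a stranded kit with ribosomal RNA removal and were sequenced as paired ends. Per the submitters' processing notes, Trim Galore 0.4.5, HISAT2, StringTie and HTSeq were used, with mm10 and GRCm38 named as builds. No counts were used, so depth is unknown and no counting interval is given. Libraries were grouped by the labels.

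Each library was divided by a size factor, the median of its ratios to the geometric mean across libraries, taken over 6492 genes at 1 FPKM or more everywhere. The 12079 genes with at least 1 FPKM in 3 libraries were tested on log2(value + 1) in R 4.3.3 with limma 3.58.1, over 8 group means and all libraries (17 residual degrees of freedom), with 1 variance per stage as weights, a trended robust prior and Benjamini-Hochberg adjustment over all genes tested, at 0.05. A fold on this scale understates the change of low genes. Typical SDs within a group were 0.0773 in MII, 0.128 in PN3, 0.352 in E2C and 0.322 in L2C libraries (log2, median over genes), so the 2-cell stages resolve only larger differences. The members, classes, other lists and tests were chosen with earlier results of these data known. Genes were named where they were among the 8 largest called rises or falls of a comparison without overlap, the 3 highest of their class, on a fixed list of carriers with a known embryo role, next to the threshold, or among the 5 largest differences without overlap and without a call. Slc26a6 and the members called without WT L2C replicate 3 were named after their values were seen. A few results that the naming rule gives are not reported here. The test was also run on simulated data with independent normal noise and a separate SD for each gene and stage. Those data held no outlying library and no shared deviation of same-numbered libraries, so they do not cover such departures. Sequences are from RefSeq (GRCm38.p6), with 78 of 105 members matched in the promoter table. Tables were made with Python 3.11.15 and pandas 2.3.3.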

Additional observations from a re-analysis of the deposited data

Results flagged for a closer look

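The KO effect differed between PN3 and MII in 3 members by the test of the difference itself (limma, Benjamini-Hochberg adjustment): Slc25a16 (-0.72 on the log2 scale, adjusted p = 0.00238), Slc41a2 (0.82, adjusted p = 0.0115) and Slc25a13 (0.82, adjusted p = 0.0149). Slc25a16 and Slc25a13 had the opposite direction at PN3 and MII in every library, and Slc41a2 overlapped between genotypes at PN3. Because Slc41a2 entered through WT MII libraries, its difference is in part a condition of membership.

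In the PN3 groups of 4 libraries, 1 library stood far from the other 3 in 10 of 150 groups examined here. Chance alone marks about 1 in 20 such groups, or 7.5 of 150, so the number is near that. Among members of moderate level, Slc10a3 was 3.04 in WT replicate 2, Slc30a1 was 6.33 in KO replicate 2, Slc18a2, a vesicular amine carrier, was 5.12 in KO replicate 3, and Slc7a5 was 7.72 in KO replicate 4. The other libraries lay at 4.62 to 4.81, 5.85 to 5.90, 4.58 to 4.65 and 6.42 to 6.57. Among members near 0 at PN3, Slc16a6 was 0.131 in KO replicate 1 (others 0.0684 to 0.0782) and Slc19a3 was 0.490 in WT replicate 2 (others 0.167 to 0.218). Slc1a5 was 0.0890 in KO replicate 4 and 0.0526 in WT replicate 4, and Slc39a4 was 0.0494 in KO replicate 3 and 0.0532 in WT replicate 3, with the other libraries of each group listed at 0. The causes were not tested.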

How the results depend on the processing

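Counts are members called, out of 105. With 1 spread shared by all stages, KO against WT gave 0 calls in MII, 0 in PN3, 2 in E2C and 15 in L2C libraries, WT PN3 against MII gave 18, and the KO effect differed in 0 members between PN3 and MII and 3 between L2C and E2C. This setting gives every stage the same error, where typical SDs run between 0.0773 and 0.352. With each comparison fitted alone there were 3 at MII, 1 at PN3 and 1 for PN3 minus MII. With 1 weight per library there were 8 at PN3, 35 at L2C, 5 for PN3 minus MII and 10 for L2C minus E2C. A pseudocount of 5 gave 5 at L2C. Leaving out WT E2C replicate 2 and WT L2C replicate 3 together, an alternative chosen after seeing the data, gave 20 at L2C and 5 for L2C minus E2C. With members at an FPKM of at least 1 (177 members) there were 1 at L2C, 94 for L2C against E2C and 133 for L2C against MII in WT, and 5 for PN3 minus MII. With members at 10 (67 members) there were 10 at MII and 1 for PN3 minus MII. Leaving out single libraries gave ranges of 9 to 19 for MII, 2 to 5 for PN3, 0 to 0 for E2C and 0 to 21 for L2C, and of 46 to 56, 25 to 38, 50 to 61 and 76 to 83 in the WT stage comparisons in the order of the text. The KO effect ranged between 1 and 6, 0 and 0, and 0 and 2 for PN3 minus MII, E2C minus PN3 and L2C minus E2C. Of 194 named calls, 118 stayed called under every alternative, and none changed direction in any. Same-numbered KO and WT libraries had correlated deviations of 0.01, 0.37, 0.12 and 0.43 at PN3, 0.07, 0.08 and 0.16 at E2C, and -0.18 to 0.22 at MII and L2C. At no stage were all pairs above 0.1, so the numbers were not taken to pair libraries. As a hint from the data, 5 of 8 libraries at PN3, 6 of 6 at E2C and 2 of 6 at L2C correlated best with their own number. With the replicate number as a block there were 7 at MII and 14 at PN3, 8 higher and 6 lower. Slc45a3 was among the 8 higher (log2 difference 0.37, adjusted p = 0.00357, limma with Benjamini-Hochberg adjustment). Without read depth, low levels such as those of Slc1a1 and Slc2a3 before L2C cannot be given counting limits. Causes of these shifts were not tested.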
